A study of Mus musculus with 6 samples.

Results

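The subject is the cytochrome P450 genes of mouse biliary epithelial cells. Members were chosen by name alone, as the genes of the deposited table whose symbol is Cyp followed by a family number, a subfamily letter and a gene number. The rule takes 93 of the 21700 genes in the table. It leaves out Cyp51, whose name has no subfamily letter, and symbols that end in a letter, such as Cyp3a41a, so a subfamily need not be whole. The study sequenced RNA from biliary epithelial cells, the cells that line the bile ducts, sorted by flow cytometry from digested livers after hepatocytes had been spun out. There were 6 libraries, 3 from non-pregnant and 3 from pregnant mice at dpc8 (day 8 post coitum). Mice of both groups were wild-type C57BL/6 females, and the labels name no agent or allele for either group. Ages and the antibodies of the sorting gate are not stated in the sources used here. Whether each library of a group is a separate animal is not said in the labels, and the p-values therefore cover the spread among these 6 libraries, which could be technical.

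Cytochrome P450 enzymes are heme proteins that insert oxygen into small lipophilic molecules. Most sit in the endoplasmic reticulum and take their electrons from the reductase Por, while a few work in mitochondria with ferredoxin. In the liver they are best known from hepatocytes, where they clear drugs and other foreign compounds, make bile acids from cholesterol and hydroxylate fatty acids, steroids, vitamins D and A and lipid mediators.

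Levels are FPKM (fragments for each kilobase of exon, scaled to the depth of the library), which can be compared between genes because they are per length. A library held between 25047887 and 35083751 recovered fragments. The biliary markers Epcam (182 to 195 FPKM) and Krt19 (220 to 386 FPKM) were high in every library, and the hepatocyte marker Alb was also present at 1973 to 2550 FPKM. Of 20 biliary markers 0 were at 0 in all libraries, and their summed level was 5678 to 7225 FPKM in non-pregnant and 7883 to 8316 FPKM in pregnant libraries. Of 19 tested biliary markers 18 were higher in pregnancy and 1 lower, with a median log2 change of 0.28 and 0 past the limma threshold. The summed level of 25 hepatocyte markers was 3484 to 4066 and 3347 to 3719 FPKM in the respective groups. Macrophage transcripts differed more, with the sum of 12 Kupffer cell markers at 57.4 to 90.4 FPKM in non-pregnant and 110 to 181 FPKM in pregnant libraries. Endothelial transcripts stood apart in 1 library, non-pregnant 2, where 12 markers summed to 348 FPKM against 24.7 to 49.4 FPKM in the other 5. Spearman correlations over the tested genes were 0.991 to 0.995 among pregnant and 0.956 to 0.979 among non-pregnant libraries.

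A gene is called expressed here when its mean over the 6 libraries was at least 1 FPKM. By this measure 22 of the 93 P450 genes (23.7%) were expressed, against 52.6% of all genes in the table. Of the 93, 59 were above 0 in all 6 libraries, 23 in some and 11 in none. The members just inside the level were Cyp7b1 (mean 1.54 FPKM) and Cyp2c29 (1.3 FPKM), and those just outside it were Cyp27a1 (0.929 FPKM) and Cyp2d26 (0.921 FPKM). Means of at least 10 FPKM were found for 9 members, and of at least 5 FPKM for 14. Of the 71 members not expressed 33 had means from 0.1 to 1 FPKM, 27 lower means above 0, and 11 were at 0 throughout. In all 6 libraries 19 of the 22 stood at 1 FPKM or more, the exceptions being Cyp26b1, Cyp2e1 and Cyp2c29.

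Few genes carried most of the transcript. Summed over all 93 members the level was 313, 337 and 332 FPKM in non-pregnant libraries 1 to 3 and 323, 324 and 283 FPKM in pregnant libraries 1 to 3, so the groups overlapped. The 5 genes with the highest means, Cyp2d22, Cyp4f14, Cyp2j6, Cyp2j5 and Cyp39a1, held between 60.1% and 66.6% of that sum in a library, and the 22 expressed genes between 94.7% and 96.8%. Grouped by role, the fatty acid hydroxylases of family 4 had 95.2 to 123 FPKM, the largest share in every library but non-pregnant 3, where subfamily 2D reached 102 FPKM. Subfamily 2D had 51.4 to 102 FPKM over all libraries and the subfamily 2J epoxygenases had 53.7 to 63.6 FPKM. Bile acid and oxysterol enzymes summed to 24.6 to 30.7 FPKM. Subfamilies 2C and 3A and the combined subfamilies 2A, 2B, 2E, 2F and 2G, which include well-known drug-metabolising enzymes of hepatocytes, each stayed below 10 FPKM in every library.

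**Figure D1:**
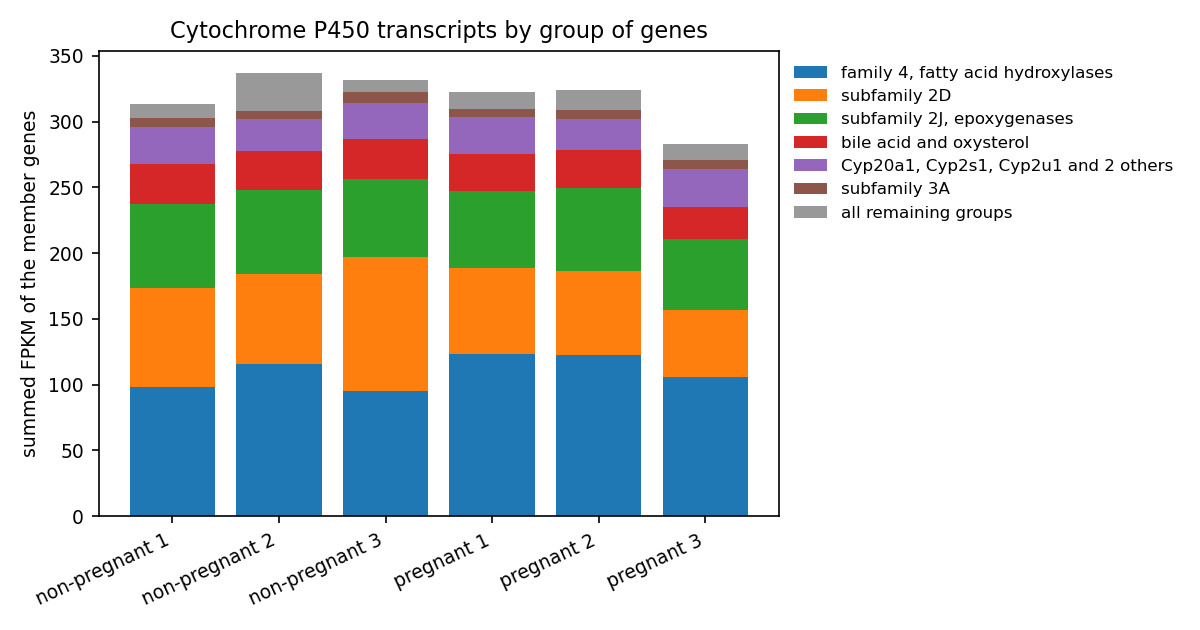
Summed FPKM of the 93 cytochrome P450 genes in each of the 6 libraries (bars), stacked by group of genes. Family 4, subfamily 2D and subfamily 2J make up most of every bar, and the whole sum lies between 283 and 337 FPKM.

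**Figure D2:**
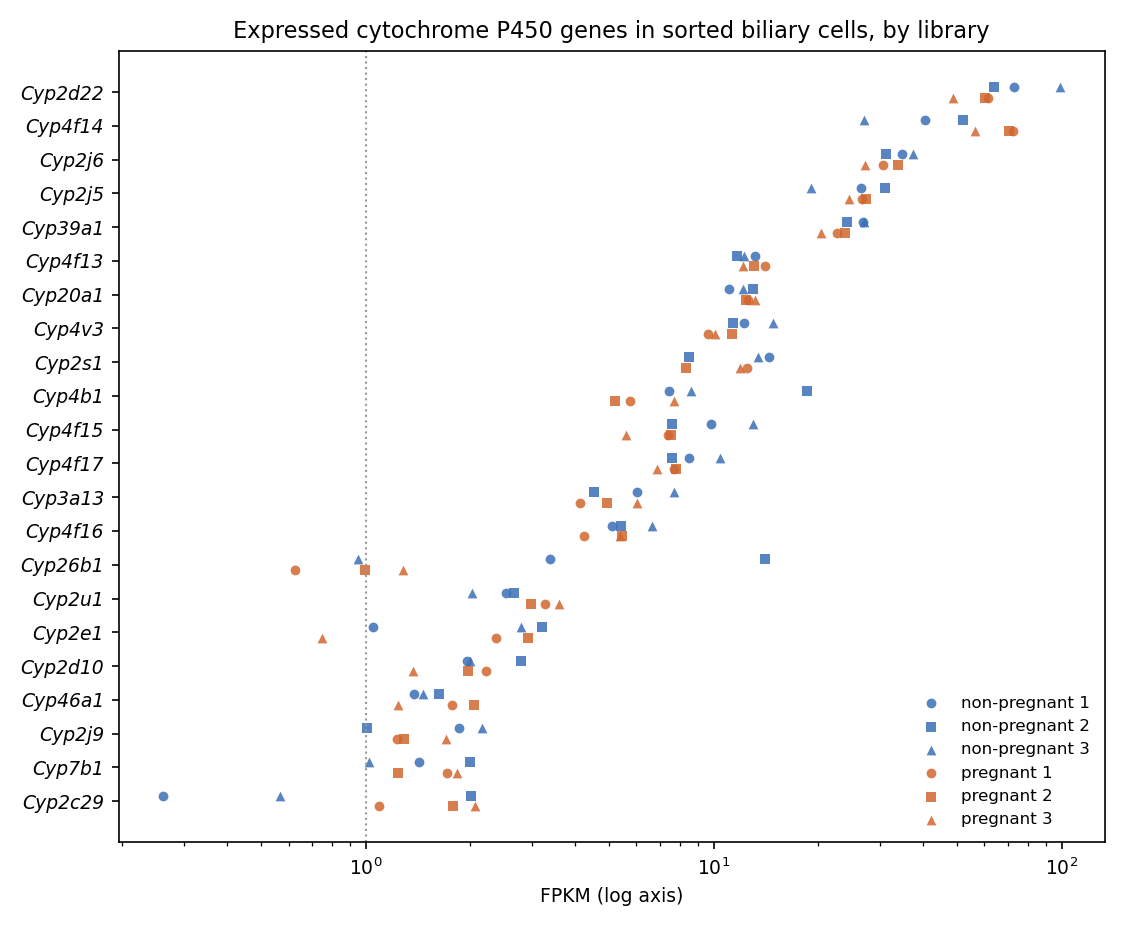
FPKM (log axis) of the 22 expressed cytochrome P450 genes in the 3 non-pregnant (blue) and 3 pregnant (orange) libraries, 1 point a library, with the dotted line at 1 FPKM. The genes run from Cyp2d22 at 48.8 to 98.9 FPKM down to Cyp2c29 at 0.262 to 2.07 FPKM, and in 6 of the 22 the groups do not overlap.

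The comparison of pregnant with non-pregnant libraries asks whether these cells carry other amounts of P450 transcripts in early pregnancy. Changes are given as log2(FPKM + 1), pregnant minus non-pregnant, tested with limma over all 11412 expressed genes and adjusted over all of them. No P450 gene passed at an adjusted p of 0.05 (limma adjusted p from 0.295 for Cyp4f14 to 0.880 for Cyp2j5), where 0.0876% of all tested genes passed. Of the 22 expressed members 8 were higher and 14 lower in pregnancy, and their median log2 change was -0.16, against -0.02 over all tested genes, of which 55.2% were lower. With the 55 members at a mean of at least 0.1 FPKM the median was 0.02, and without non-pregnant library 3 that of the 22 was -0.06. At an unadjusted p under 0.05 there were 7 of 22 (31.8%), Cyp4f14 and Cyp2u1 higher and Cyp4f15, Cyp2d22, Cyp4v3, Cyp39a1 and Cyp4b1 lower, against 13.4% of all tested genes (7.09% higher, 6.3% lower). The groups did not overlap in 6 members, or 27.3%, against 22.1% of all tested genes (9.9% higher, 12.2% lower), which is a share near the background. In bulk RNA, fewer cells of a type and less RNA per cell cannot be told apart, and this holds for each difference below.

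The number of members at an unadjusted p under 0.05 moved with single libraries. Without non-pregnant library 2 it was 10 of 22, with 2744 of all 11412 genes. Leaving out non-pregnant library 1, non-pregnant library 3 or pregnant library 1 gave 4 members, beside 11.6%, 12.4% and 7.51% of all tested genes. It was 6 without pregnant library 2 (9.3% of all tested genes) and 2 without pregnant library 3 (6.37%), and no member passed the adjusted threshold in any of these fits. Leaving out 1 library moved the log2 change by over 1.5 times, or turned it, in 19 of the 22 members, the exceptions being Cyp4f14, Cyp2u1 and Cyp39a1. Cyp26b1 and Cyp2c29 reached a mean of 1 FPKM only in the group in which they were higher. Of the other 20 members 7 were higher and 13 lower, with a median of -0.16. Weights estimated for each library were highest for non-pregnant library 1 (3.68) and lowest for non-pregnant libraries 2 and 3 (0.411 and 0.205). The non-pregnant side of that fit therefore rests mostly on 1 library, here and wherever library weights are named below. With these weights limma called 4 members, Cyp4f14 and Cyp2c29 higher and Cyp4f15 and Cyp26b1 lower, against 11.4% of all tested genes. Of these, Cyp2c29 and Cyp26b1 passed the expression filter through the group in which they were higher, so nothing is read from their place here. The expressed members varied more between libraries than other genes did, with a median coefficient of variation of 22.3% against 10.7%. Of the 22, 9 were highest in non-pregnant library 3 (35.8% of all tested genes were), 6 in non-pregnant library 2 (15.6%) and 8 were lowest in pregnant library 3 (21.1%).

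**Figure D3:**
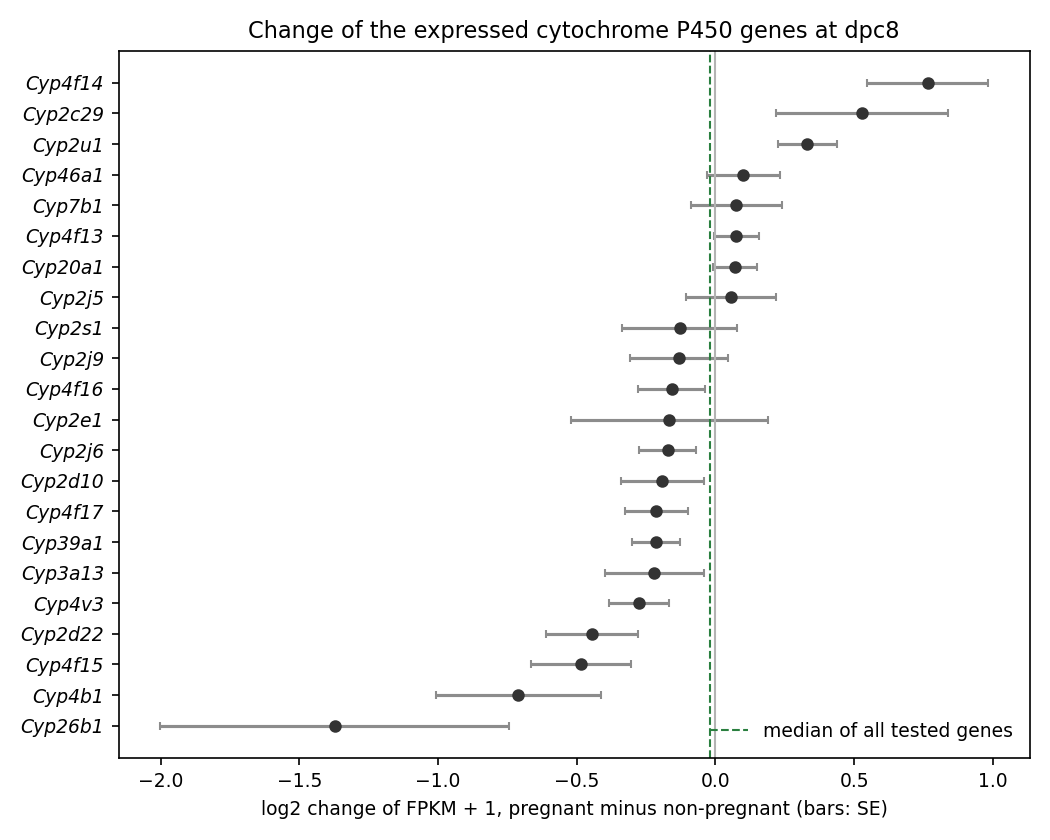
Log2 change of FPKM + 1 (pregnant minus non-pregnant; points, with bars for the standard error) of the 22 expressed cytochrome P450 genes, beside the median of all tested genes (dashed line, -0.02). The changes run from -1.37 for Cyp26b1, which has the widest error bar, to 0.77 for Cyp4f14.

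Family 4 enzymes hydroxylate fatty acids and the lipid mediators made from them at or near the end of the chain. Of 17 members 7 were expressed, 2 higher and 5 lower in pregnancy. Cyp4f14, which hydroxylates the inflammatory mediator leukotriene B4, had the smallest p of the expressed members. It measured 40.5, 52.0 and 27.0 FPKM in non-pregnant libraries 1, 2 and 3 and 72.6, 70.5 and 56.5 FPKM in pregnant libraries 1, 2 and 3, the order kept for all such values below. Every pregnant library was above every non-pregnant one, with non-pregnant library 3 the lowest. The group means were 39.8 ± 12.5 and 66.5 ± 8.77 FPKM (SD, n = 3 each), a 1.67-fold difference (limma log2 change 0.77, SE 0.219, adjusted p = 0.295). With library weights the change was 0.74 and passed (limma adjusted p = 0.0104, against a range of 0.0104 to 0.738 over all alternatives), and leaving out single libraries gave 0.52 to 0.98. Cyp4f14 (ENSMUSG00000024292) spans chromosome 17 from 32905070 to 32917342 on the minus strand in mm10. It shared 0.162% of the 75-base windows of its transcripts with another gene, so few of its fragments could belong elsewhere.

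Cyp4f14 lies in a cluster of 8 Cyp4f genes that spans chromosome 17 from 32452723 to 32947402, and the neighbours differed in level and direction. Its nearest neighbour Cyp4f13 measured 13.2, 11.7 and 12.2 FPKM outside pregnancy and 14.0, 13.0 and 12.2 FPKM at dpc8. The groups overlapped and the levels of Cyp4f13 lay close together (limma log2 change 0.08, adjusted p = 0.676; 0.03 to 0.12 with single libraries left out). Cyp4f15 measured 9.84, 7.58 and 13.0 FPKM outside pregnancy and 7.39, 7.54 and 5.61 FPKM at dpc8. All 3 pregnant values of Cyp4f15 lay below all non-pregnant ones, the closest pair being 7.54 and 7.58 FPKM (limma log2 change -0.48, SE 0.181, adjusted p = 0.342). Without non-pregnant library 3 the change was -0.31, and with library weights it was -0.41 and passed (limma adjusted p = 0.0374, range over all alternatives 0.0374 to 0.738). Cyp4f17 stood at 8.49, 7.61 and 10.5 FPKM against 7.69, 7.77 and 6.89 FPKM, and Cyp4f16 at 5.10 to 6.65 FPKM against 4.24 to 5.45 FPKM. Both overlapped between the groups and had log2 changes of -0.21 and -0.16. Without non-pregnant library 3 these were -0.10 and -0.06, and without pregnant library 1 that of Cyp4f16 was -0.06. In Cyp4f16 10.1% of windows also match other genes, mostly Cyp4f37. The other 3 genes of the cluster were not expressed: Cyp4f40 had a mean of 0.0887 FPKM, Cyp4f39 of 0.0407 FPKM, and Cyp4f37 was at 0 in all 6 libraries. Cyp4f18, on chromosome 8, is known from neutrophils and other leukocytes and had a mean of 0.0218 FPKM. These 4 were picked with their values in view.

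The remaining expressed family 4 genes were Cyp4v3 and Cyp4b1. Cyp4v3, the mouse counterpart of a human fatty acid hydroxylase linked to a retinal dystrophy, measured 12.3, 11.3 and 14.8 FPKM outside pregnancy and 9.66, 11.3 and 10.1 FPKM at dpc8. Its groups touched at 11.3 FPKM without overlapping (limma log2 change -0.28, SE 0.108, adjusted p = 0.352), and without non-pregnant library 3 the change was -0.17. An annotated gene on the same strand, Gm45753, shares 6.40% of its windows. Cyp4b1, which also activates some toxic plant furans, measured 7.46, 18.6 and 8.58 FPKM outside pregnancy and 5.76, 5.19 and 7.67 FPKM at dpc8. Non-pregnant library 2 was 2.68-fold above the mean of the other 5 and the groups overlapped (limma log2 change -0.71, SE 0.298, adjusted p = 0.366). Without that library the change was -0.34. The Cyp4a genes among the members, fatty acid hydroxylases driven by the receptor PPAR-alpha in hepatocytes, were not expressed. Cyp4a14 was the only one to reach 1 FPKM in any library, with 0.188, 0.356 and 1.06 FPKM outside pregnancy and 0.390, 0.535 and 0.197 FPKM at dpc8, with the highest value in non-pregnant library 3.

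Promoters of a variable and a steady member are shown for context, the 300 bases from 250 before to 50 after the start that RefSeq gives on GRCm38.p6, the build also called mm10. The first is that of Cyp4f14 (chr17:32917293-32917592, minus strand), the expressed member of smallest p, and the second that of Cyp20a1 (chr1:60343050-60343349, plus strand), the expressed member with the lowest coefficient of variation, 6.05%. Capitals mark TATAAA, the letters of a TATA box, CCAAT, those of a CCAAT box, and GCGTG, the core bound by the aryl hydrocarbon receptor. Matches were taken on either strand and at any place in the window, so TATAAA need not lie where a TATA box acts.
Cyp4f14: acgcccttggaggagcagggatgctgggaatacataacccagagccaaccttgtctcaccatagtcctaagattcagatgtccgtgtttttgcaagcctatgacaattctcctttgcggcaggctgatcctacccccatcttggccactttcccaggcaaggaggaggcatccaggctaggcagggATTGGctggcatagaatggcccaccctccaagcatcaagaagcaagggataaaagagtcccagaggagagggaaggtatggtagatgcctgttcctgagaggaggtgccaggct
Cyp20a1: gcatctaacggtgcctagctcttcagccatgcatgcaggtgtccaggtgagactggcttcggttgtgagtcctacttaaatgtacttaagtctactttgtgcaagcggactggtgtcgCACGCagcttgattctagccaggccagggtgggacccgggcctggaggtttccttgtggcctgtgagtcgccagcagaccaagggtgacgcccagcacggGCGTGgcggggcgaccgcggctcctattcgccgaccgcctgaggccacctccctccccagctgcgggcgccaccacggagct
The Cyp4f14 window holds 3 CpG dinucleotides and 1 CCAAT box and the Cyp20a1 window 20 CpG and 2 GCGTG cores, where the median of all 32817 promoters is 7 CpG. Of the 93 members 72 had a RefSeq promoter. Searched on both strands, TATAAA was found in 30 of the 72 and in 13.6% of all promoters, AGGTCA, the nuclear receptor half-site, in 19 and in 16.3%, GCGTG in 14 and in 32.4%, CCAAT in 33 and in 37.4%, GTTAAT, the HNF1 half-site, in 8 and in 7.10%, and TTCNNNGAA, the STAT5 site, in 5 and in 8.29%. TATAAA stood in 5 of the 17 expressed members with a promoter and in 25 of the 55 not expressed, with a median of 4 and 2 CpG. These matches describe the letters in the window and show no binding.

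Enzymes of bile acid and oxysterol synthesis turn cholesterol into bile acids by a classic route that starts with Cyp7a1 and by routes through side-chain oxysterols. Of 7 members 3 were expressed. Cyp39a1, which hydroxylates 24-hydroxycholesterol, measured 26.8, 24.2 and 27.0 FPKM outside pregnancy and 22.6, 23.9 and 20.3 FPKM at dpc8. The groups did not overlap, their closest values being 24.2 and 23.9 FPKM, and the spread within each was small (26.0 ± 1.53 and 22.3 ± 1.81 FPKM, SD, n = 3 each; limma log2 change -0.22, SE 0.0862, adjusted p = 0.357). Cyp7b1, the oxysterol 7-alpha-hydroxylase of the alternative route, stood at 1.02 to 2.0 FPKM against 1.24 to 1.82 FPKM, and Cyp46a1, the cholesterol 24-hydroxylase known from brain, at 1.38 to 1.62 FPKM against 1.24 to 2.05 FPKM. Both overlapped, with log2 changes of 0.08 and 0.10, which leaving out single libraries moved from -0.06 (without non-pregnant library 3) to 0.22 for Cyp7b1 and from 0.00 to 0.23 for Cyp46a1. Cyp27a1, the mitochondrial sterol 27-hydroxylase, reached 1 FPKM in non-pregnant library 2 and pregnant library 1 and lay between 0.732 and 1.21 FPKM. Cyp7a1, Cyp8b1, the 12-alpha-hydroxylase, and Cyp2c70, which makes the muricholic acids of mice, had means of 0.067, 0.062 and 0.341 FPKM, picked with their values in view. Among 8 tested partner enzymes of bile acid synthesis 5 were higher and 3 lower, 0 passed, and the median was 0.07. Those of smallest p were Akr1c6 (0.657 ± 0.662 and 1.36 ± 0.111 FPKM), Akr1d1 (1.45 ± 0.436 and 1.98 ± 0.0762 FPKM), Hsd17b4 (32.9 ± 2.96 and 29.3 ± 0.865 FPKM) and Acox2 (4.71 ± 1.95 and 6.42 ± 1.62 FPKM; SD, n = 3 each).

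Family 26 enzymes clear retinoic acid, the active form of vitamin A. Cyp26b1 was the only 1 of 3 that was expressed and had the largest log2 change of the expressed members. It measured 3.39, 14.0 and 0.95 FPKM outside pregnancy and 0.624, 0.998 and 1.28 FPKM at dpc8. Non-pregnant library 2 was 9.67-fold above the mean of the other 5, non-pregnant library 3 lay within the pregnant range, and the groups overlapped. The means were 6.12 ± 6.94 and 0.966 ± 0.327 FPKM (SD, n = 3 each; limma log2 change -1.37, SE 0.629, adjusted p = 0.389). Leaving out non-pregnant library 2 gave -0.59, and leaving out non-pregnant library 3 gave -2.06. With library weights it was -1.34 and passed (limma adjusted p = 0.0277, range over all alternatives 0.0277 to 0.738). Because Cyp26b1 passed the expression filter through the non-pregnant libraries, nothing is read from that call. Cyp26b1 (ENSMUSG00000063415) spans chromosome 6 from 84571414 to 84593908 and shared no 75-base window with another gene. Cyp26a1 and Cyp26c1 lay between 0.172 and 0.879 FPKM in all libraries, picked with their values in view.

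Endothelial markers followed the same library. Their sum was 49.4, 348 and 24.7 FPKM outside pregnancy and 25.5, 39.4 and 31.8 FPKM at dpc8, all 12 of 12 were highest in non-pregnant library 2, and that library stood 10.2-fold above the mean of the other 5. None of them was at 0 in all 6 libraries, and the endothelial scavenger receptor Stab2, chosen after its values were seen, went from 2.96 to 5.98 FPKM in the other libraries to 46.8 FPKM there. Of the 22 expressed members, Cyp26b1 and Cyp4b1 were the 2 that stood highest there relative to the other libraries, apart from which the ratio lay between 0.614 and 1.74. All 12 endothelial markers were lower in pregnancy by the fit (median log2 change -1.11) and 0 passed. Of 12 stellate and mesenchymal markers 10 were also highest in that library, with a sum of 51.0 FPKM there and 43.6 to 47.0 FPKM elsewhere. The part of endothelial or mesenchymal RNA in the levels of Cyp26b1 and Cyp4b1 was not tested. Of 7 tested retinoid partner genes 6 were higher and 1 lower in pregnancy, with a median of 0.06 and 0 past the threshold. Aldh1a2, which makes retinoic acid, measured 8.0, 7.25 and 4.21 FPKM outside pregnancy and 12.5, 11.6 and 21.5 FPKM at dpc8 (limma log2 change 1.10, SE 0.267, adjusted p = 0.279). Its groups did not overlap. Neither did those of the binding protein gene Crabp2 (2.24 ± 0.548 and 3.33 ± 0.114 FPKM) or the retinal reductase gene Rdh11 (15.2 ± 3.0 and 18.9 ± 0.60 FPKM; SD, n = 3 each).

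**Figure D4:**
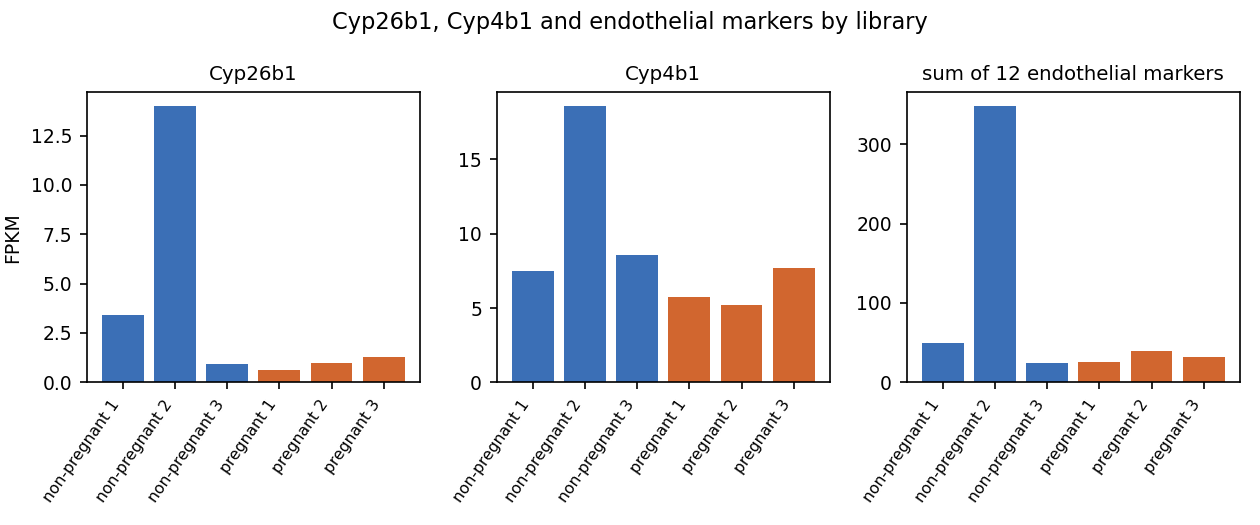
FPKM of Cyp26b1, of Cyp4b1 and of 12 summed endothelial markers in the 3 non-pregnant (blue) and 3 pregnant (orange) libraries, 1 bar a library. All reach their highest value in non-pregnant library 2, at 14.0, 18.6 and 348 FPKM.

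Subfamily 2D enzymes oxidise many basic drugs. Cyp2d22, the mouse gene often set beside human CYP2D6, had the highest mean of all members over the 6 libraries. It measured 73.0, 64.1 and 98.9 FPKM outside pregnancy and 61.5, 60.4 and 48.8 FPKM at dpc8. In each pregnant library Cyp4f14 stood above it, at 72.6, 70.5 and 56.5 FPKM. For Cyp2d22 every pregnant library was below every non-pregnant one, with non-pregnant library 3 the highest of all. The means were 78.6 ± 18.1 and 56.9 ± 7.05 FPKM (SD, n = 3 each), a ratio of 0.723 (limma log2 change -0.44, SE 0.166, adjusted p = 0.342), and without non-pregnant library 3 the change was -0.27. Cyp2d22 (ENSMUSG00000061740) spans chromosome 15 from 82370527 to 82380260 and shared 1.51% of its windows with other genes. Of 8 members only Cyp2d10 was also expressed, at 1.37 to 2.79 FPKM with overlapping groups (log2 change -0.19, or -0.08 without non-pregnant library 2 and -0.06 without pregnant library 3), and 22.3% of its windows match other genes, mostly Cyp2d11. Cyp2d26 lay between 0.565 and 1.17 FPKM, and the highest mean among the other 5 was 0.317 FPKM, that of Cyp2d9, picked with its value in view.

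Subfamily 2J enzymes make epoxides of arachidonic acid, and 3 of 8 were expressed. Cyp2j6 measured 34.8, 31.3 and 37.5 FPKM outside pregnancy and 30.6, 33.8 and 27.3 FPKM at dpc8. Cyp2j5 stood at 26.6, 31.2 and 19.1 FPKM against 26.8, 27.3 and 24.4 FPKM. Both overlapped between groups, with log2 changes of -0.17 ± 0.104 and 0.06 ± 0.161 (SE; limma adjusted p of 0.462 and 0.880). Cyp2j5 was lowest and Cyp2j6 highest in non-pregnant library 3, and without it the changes were -0.13 for Cyp2j5 and -0.11 for Cyp2j6, while without pregnant library 3 that of Cyp2j6 was -0.10. Cyp2j9 lay at 1.01 to 2.16 FPKM against 1.23 to 1.70 FPKM (log2 change -0.13, from -0.32 without non-pregnant library 2 to 0.0020 without non-pregnant library 3). These 3 lie in a common region of chromosome 4 and shared no 75-base window with any other gene.

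Subfamilies 2C, 3A and 2A, 2B, 2E, 2F and 2G hold many of the abundant P450 transcripts of hepatocytes. Of 14 members of 2C, 7 of 3A and 12 of the others, 1 each was expressed. Cyp2e1, which oxidises ethanol, measured 1.05, 3.20 and 2.79 FPKM outside pregnancy and 2.37, 2.92 and 0.751 FPKM at dpc8. The groups overlapped widely (limma log2 change -0.17, SE 0.356, adjusted p = 0.835), and the direction of Cyp2e1 turned without non-pregnant library 2 (0.03), without pregnant library 3 (0.19) and with library weights (0.49). Cyp2c29 measured 0.262, 2.01 and 0.566 FPKM outside pregnancy and 1.09, 1.79 and 2.07 FPKM at dpc8. Non-pregnant library 2 was level with the pregnant ones and the other 2 lay below them (limma log2 change 0.53, SE 0.310, adjusted p = 0.454). The change of Cyp2c29 was 0.27 with non-pregnant library 1 left out, 0.89 with library 2 of that group left out and 1.26 with limma-voom on fragments. With library weights it was 0.86 and passed (limma adjusted p = 0.0372, range over all alternatives 0.0372 to 0.763). Because Cyp2c29 passed the expression filter through the pregnant libraries, nothing is read from that call. Cyp3a13, the 3A gene known from the gut, stood at 6.03, 4.52 and 7.71 FPKM against 4.13, 4.94 and 6.03 FPKM and overlapped (limma log2 change -0.22, SE 0.179, adjusted p = 0.573). The change of Cyp3a13 was -0.06 without non-pregnant library 3, -0.11 without pregnant library 1 and -0.39 without non-pregnant library 2.

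The other genes of these subfamilies that reached 1 FPKM somewhere were Cyp3a11, Cyp2f2, Cyp2c23 and Cyp2c69. Cyp3a11, the main 3A enzyme of adult mouse liver, lay at 0.463 to 1.35 FPKM and Cyp2f2, which activates naphthalene, at 0.431 to 1.36 FPKM, both highest in non-pregnant library 2. Cyp2c23, an arachidonic acid epoxygenase, lay at 0.408 to 0.843 FPKM against 0.494 to 1.06 FPKM. Alb stood in the same libraries at 1973 to 2550 FPKM, and 11 of 25 hepatocyte markers were highest in non-pregnant library 2. Of the 52 members below a mean of 1 FPKM that had at least 10 recovered fragments, 15 (28.8%) were highest in that library, against 17.6% of the 4224 genes so chosen. How much of these levels was hepatocyte RNA was not tested.

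The 3 expressed members outside these groups were Cyp20a1, Cyp2s1 and Cyp2u1. Cyp20a1, a conserved P450 without a settled substrate, measured 11, 12.9 and 12.2 FPKM outside pregnancy and 12.6, 12.3 and 13.2 FPKM at dpc8, the narrowest spread of any expressed member (log2 change 0.07, or 0.02 to 0.12 with single libraries left out). Cyp2s1, known from epithelia outside the liver, stood at 14.5, 8.51 and 13.4 FPKM against 12.5, 8.34 and 11.9 FPKM. It was lowest in library 2 of each group, and the groups overlapped (limma log2 change -0.13, SE 0.208, adjusted p = 0.779). The direction of Cyp2s1 turned without non-pregnant library 1 (0.0053) and without pregnant library 2 (0.0365). Cyp2u1, a hydroxylase of long-chain fatty acids, measured 2.54, 2.67 and 2.03 FPKM outside pregnancy and 3.27, 2.99 and 3.60 FPKM at dpc8. All pregnant values of Cyp2u1 were above all non-pregnant ones, a 1.36-fold difference of the means (2.41 ± 0.342 and 3.29 ± 0.305 FPKM, SD, n = 3 each; limma log2 change 0.33, SE 0.107, adjusted p = 0.301). The exons of Cyp2u1 and of Cyp2s1 each overlap an antisense gene, 4930534D22Rik and Gm26707, and the sources used here do not give whether counting used strand. Cyp2u1 (ENSMUSG00000027983) spans chromosome 3 from 131288441 to 131303227.

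No member of 3 further groups was expressed. The family 1 genes are the classic targets of the aryl hydrocarbon receptor. The highest of the 3, Cyp1a2, measured 0.104, 0.838 and 0.226 FPKM outside pregnancy and 0.466, 0.643 and 0.373 FPKM at dpc8, overlapping and highest in non-pregnant library 2. The receptor gene Ahr itself was present at 7.48 to 9.47 FPKM (limma log2 change -0.00, adjusted p = 0.997). Its repressor Ahrr lay between 0 and 0.0239 FPKM, and Tiparp, a further target, at 11.6 to 15.5 FPKM (limma adjusted p = 0.644). Of 8 genes of its target battery 3 were tested, 2 higher and 1 lower, and 0 passed. Among the vitamin D enzymes Cyp27b1, the activating 1-alpha-hydroxylase, stood at 0.420, 0.463 and 0.695 FPKM against 0.685, 0.528 and 0.645 FPKM, again overlapping. Of the 6 genes of steroid hormone synthesis the highest was Cyp17a1, the 17-alpha-hydroxylase, at 0.277, 0.191 and 0.185 FPKM against 0.108, 0.199 and 0.128 FPKM. Cyp19a1, the aromatase that makes oestrogens, and Cyp11b1, the last enzyme of corticosterone synthesis, were at 0 in all 6 libraries, picked with their values in view. The 9 others at 0 throughout were Cyp2c39, Cyp2c66, Cyp2b19, Cyp2b23, Cyp2j7, Cyp2j11, Cyp2j12, Cyp4f37 and Cyp4a29.

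Below the expression level no member passed either. Fragments were recovered from the FPKM values and tested with limma-voom over the 15476 genes with at least 10 fragments, an alternative chosen after the data were seen, in which 0% of genes passed at an adjusted p of 0.05 (2145 genes, or 13.9%, had an unadjusted p under 0.05). Of the 52 low members 6 were higher and 0 lower at an unadjusted p under 0.05, against 12.6% and 2.25% of all 4224 low genes, so the share of members was near the background. The groups did not overlap in 4 higher members (Cyp3a16, Cyp3a44, Cyp4x1 and Cyp2r1) and 1 lower (Cyp2t4), against 16.1% and 4.66%. The 6 were Cyp3a16, Cyp3a44, Cyp2c69, Cyp2a4, Cyp4x1 and Cyp2a22, of which only Cyp2c69 reached 1 FPKM in any library. The others were picked with their values in view. Cyp4x1 counted 12, 19 and 6 fragments outside pregnancy and 27, 21 and 39 at dpc8. Its limma-voom log2 change was 1.49 (adjusted p = 0.317), or 0.93 without non-pregnant library 3. Of the 52, 12 held 10 fragments in only 1 of the groups, among them Cyp3a16, Cyp3a44 and Cyp2a22, which passed the filter through the pregnant libraries. The counts above are therefore a description, and nothing is read from the place of these 3 in them. Leaving out non-pregnant libraries 1, 2 and 3 in turn gave 3, 11 and 3 higher members, beside 9.75%, 13.9% and 8.83% of low genes. Leaving out pregnant libraries 1, 2 and 3 in turn gave 4, 4 and 6, beside 9.45%, 11.1% and 11.5%. Cyp2c69, Cyp3a16 and Cyp3a44 were among them each time, the latter pair having passed the filter through the pregnant libraries. For Cyp2c69 the unadjusted limma-voom p was 0.0481 without non-pregnant library 1, close to the level used.

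Cyp3a16 is known from fetal and young liver, and Cyp3a44 is a 3A gene expressed mainly in females. Cyp3a16 counted 0, 0 and 0 fragments outside pregnancy and 6, 12 and 6 at dpc8. Set against a floor of 3 fragments over the non-pregnant group, the ratio of Cyp3a16 was 9.14. With 0 non-pregnant fragments the exact 95% lower limit of the ratio for counting error was 6.88. Cyp3a44 counted 2, 0 and 0 fragments outside pregnancy and 16, 25 and 8 at dpc8. Its pooled ratio was 28.0, with a 95% interval from 7.35 to 238 (exact Clopper-Pearson, for counting error only). The 2 genes were picked with their values in view and passed the filter through the pregnant libraries. Their limits therefore do not test an effect of pregnancy. Both genes lie on chromosome 5, Cyp3a16 (ENSMUSG00000038656) from 145436309 to 145469723 and Cyp3a44 (ENSMUSG00000054417) from 145773983 to 145805874. Other genes share 1.63% of the windows of Cyp3a16 and 11% of those of Cyp3a44, in the latter most with Cyp3a41a, so fragments of Cyp3a44 are less certain. Cyp3a41a itself, picked with its values in view, lay between 0 and 0.0628 FPKM.

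The promoters of both genes are shown for context, chr5:145469674-145469973 for Cyp3a16 and chr5:145805825-145806124 for Cyp3a44, both on the minus strand of GRCm38.p6 (RefSeq). Capitals mark TATAAA at any place in the window, which need not be where a TATA box acts. The pair was picked with its values in view, and a bearing of these windows on the fragments was not tested.
Cyp3a16: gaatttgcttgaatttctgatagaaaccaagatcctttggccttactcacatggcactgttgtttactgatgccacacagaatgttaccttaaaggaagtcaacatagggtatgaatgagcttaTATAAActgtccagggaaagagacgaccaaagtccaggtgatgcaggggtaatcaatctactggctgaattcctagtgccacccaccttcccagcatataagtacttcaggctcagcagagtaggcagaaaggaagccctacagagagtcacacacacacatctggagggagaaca
Cyp3a44: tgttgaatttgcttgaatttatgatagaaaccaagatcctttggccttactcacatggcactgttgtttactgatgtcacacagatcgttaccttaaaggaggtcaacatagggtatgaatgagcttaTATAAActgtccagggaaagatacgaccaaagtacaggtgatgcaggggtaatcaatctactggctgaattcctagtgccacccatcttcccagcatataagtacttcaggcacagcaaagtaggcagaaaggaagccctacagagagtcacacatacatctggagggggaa
Aligned end to end, 284 of 296 bases were identical (95.9%), and no other pair was compared. Each window held 1 TATAAA and 1 or 2 CpG, and AGGTCA stood in the Cyp3a44 window but not in that of Cyp3a16.

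Cyp2c69 and Cyp2a4 had more fragments. Cyp2c69 counted 2, 20 and 6 fragments outside pregnancy and 54, 58 and 16 at dpc8, a pooled ratio of 5.22 (95% counting interval 3.45 to 8.17; limma-voom adjusted p = 0.261). Cyp2a4, a testosterone 15-alpha-hydroxylase, had 4, 16 and 1 against 38, 50 and 10, a pooled ratio of 5.33 (3.30 to 9.0; limma-voom adjusted p = 0.292). In both, non-pregnant library 2 stood above pregnant library 3, so the groups overlapped. Of the windows of Cyp2c69 42.6% match other genes, mostly Cyp2c40, and of those of Cyp2a4 22.1%, mostly Cyp2a5. The hepatocyte markers overlapped between the groups in their sum, given above, with 9 of 24 tested higher and 15 lower, a median of -0.10 and 0 past the threshold. Among them Fabp1 measured 1.45, 4.01 and 2.52 FPKM outside pregnancy and 9.71, 12.7 and 9.86 FPKM at dpc8 (limma adjusted p = 0.0845). Apoh stood at 21.2 ± 6.10 and 8.65 ± 2.16 FPKM (SD, n = 3 each; limma adjusted p = 0.205). Kupffer cell markers were higher in 10 of 10 tested, with 4 past the threshold (Cd5l, C1qc, C1qa and Fcna) and a median of 2.43. Outside pregnancy and at dpc8 the sums were 0.0481 to 0.139 and 0.697 to 1.78 FPKM for T and natural killer cell markers, 2.45 to 3.23 and 3.69 to 4.35 FPKM for B and plasma cell markers, and 0.695 to 1.09 and 1.64 to 2.31 FPKM for neutrophil markers. The part of hepatocyte, macrophage or other leukocyte RNA in the fragments of these low members was not tested.

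**Figure D5:**
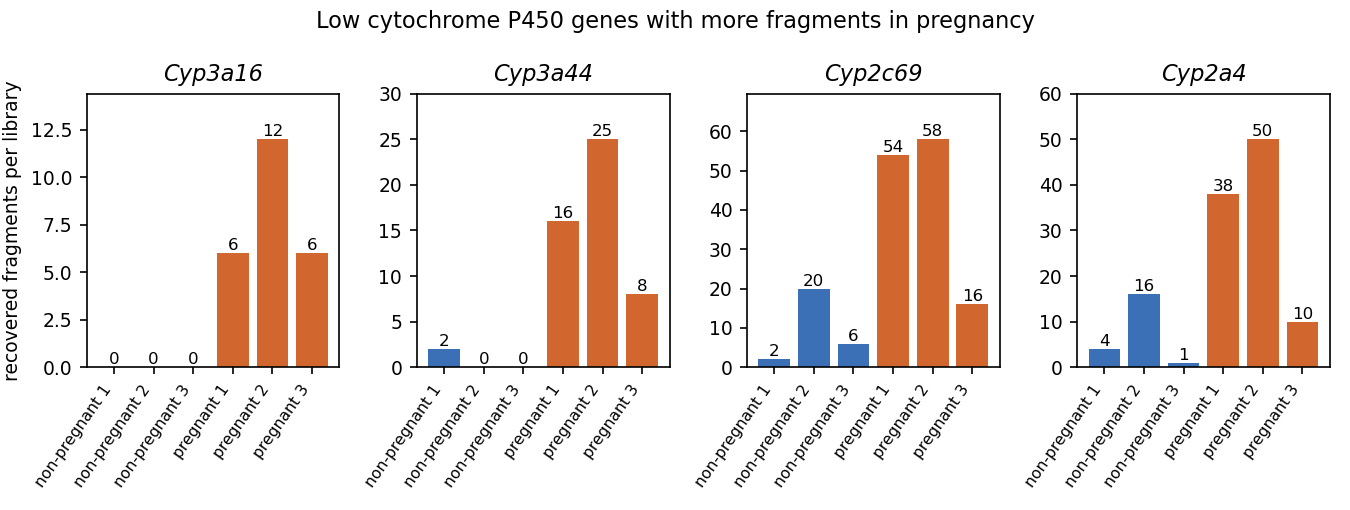
Recovered fragments per library (bars, with the number above) of Cyp3a16, Cyp3a44, Cyp2c69 and Cyp2a4 in the 3 non-pregnant (blue) and 3 pregnant (orange) libraries. Cyp3a16 has 0 fragments in every non-pregnant library and 6 to 12 in the pregnant ones, while Cyp2c69 and Cyp2a4 overlap through non-pregnant library 2.

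The partners that P450 enzymes need were well expressed. All 9 redox partner genes were tested, 3 higher and 6 lower in pregnancy, with a median of -0.05 and 0 past the threshold. Por, the reductase that feeds electrons to the P450 enzymes of the endoplasmic reticulum, measured 45.0, 44.2 and 60.2 FPKM outside pregnancy and 38.6, 39.8 and 41.2 FPKM at dpc8. Its groups did not overlap, with non-pregnant library 3 the highest (limma log2 change -0.30, SE 0.123, adjusted p = 0.362). Cytochrome b5 and its reductase, which supply further electrons, lay level, with Cyb5a at 25.4 to 27.2 FPKM and Cyb5r3 at 35.2 to 43.4 FPKM over all 6 libraries, and Cyb5b at 42.6 ± 6.32 and 47.7 ± 1.12 FPKM. The mitochondrial partners Fdx1 and Fdxr lay at 8.95 to 12.4 and 7.61 to 9.03 FPKM. Pgrmc2, a membrane heme-binding protein, stood at 23.6 ± 1.00 and 20.5 ± 1.29 FPKM and the ferredoxin Fdx2 at 14.4 ± 0.558 and 16.5 ± 1.04 FPKM (SD, n = 3 each).

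Of 12 genes of heme supply 5 were higher and 7 lower, with a median of -0.02 and 0 past the threshold. Hmox1, the oxygenase that breaks heme down and is abundant in macrophages, measured 2.83, 2.68 and 2.29 FPKM outside pregnancy and 5.45, 4.38 and 4.83 FPKM at dpc8. Its groups did not overlap (limma log2 change 0.71, SE 0.102, adjusted p = 0.0854), and the Kupffer cell markers differed between the same libraries, a part that was not tested. Alas1, the first enzyme of heme synthesis, lay at 10.4 to 12.5 FPKM over all 6 libraries (limma adjusted p = 0.459). Fech, which inserts the iron, stood at 8.14 ± 0.858 and 6.78 ± 0.363 FPKM and Alad, the second enzyme of the pathway, at 20.5 ± 1.98 and 24.0 ± 1.90 FPKM (SD, n = 3 each; limma adjusted p of 0.352 and 0.369).

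Among regulators of P450 genes 22 of 26 were tested, 5 higher and 17 lower, with a median of -0.10 and 0 past the threshold. Nr1i2, the xenobiotic receptor PXR that drives Cyp3a genes in hepatocytes, lay at 13.8 to 16.2 FPKM with overlapping groups. Nr1i3, its relative CAR that drives Cyp2b genes, lay between 0.051 and 0.277 FPKM. Hnf4a, an activator of P450 genes in hepatocytes, measured 25.8, 26.7 and 28.8 FPKM outside pregnancy and 24.7, 23.0 and 22.3 FPKM at dpc8 (limma log2 change -0.21, adjusted p = 0.342), without overlap. The part of hepatocyte RNA in the level of Hnf4a was not tested. Rxra, the partner of many nuclear receptors, stood at 49.9, 43.8 and 89.8 FPKM against 41.4, 39.0 and 31.5 FPKM, and Nr0b2, the repressor SHP, at 23.8 ± 3.86 against 18.4 ± 2.49 FPKM (SD, n = 3 each). Rxra was highest in non-pregnant library 3, as were Cyp2d22 and 35.8% of all tested genes. Nr1h3, the oxysterol receptor LXR-alpha, was higher in pregnancy, at 4.12 ± 0.654 and 5.57 ± 0.539 FPKM (SD, n = 3 each; limma adjusted p = 0.301), and its groups did not overlap.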

How the data were processed

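The authors deposited FPKM values for 21700 genes, 1 column for each of 6 libraries. Per the submitters' processing notes, mm10, STAR 2.7.9a, cutadapt 3.4, HTSeq 0.13.5 and DESeq2 1.30.1 were used, with no role given. Libraries came from a KAPA kit after removal of ribosomal RNA, per the labels' protocols. Groups and replicate numbers came from the sample titles, although the description of non-pregnant library 3 numbers it 4.

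The 11412 genes whose 6 libraries averaged 1 FPKM or more were tested as log2(FPKM + 1), which understates changes of low genes, with two-sided tests in limma 3.58.1 (empirical Bayes with a trend, R 4.3.3), Benjamini-Hochberg adjusted at 0.05. FPKM times GENCODE vM21 exon length gave whole fragments for 98.5% to 98.6% of values (tolerance 0.01), and 105 genes had no length. These fragments went to limma-voom with trimmed-mean scaling. Ratios carry 95% exact Clopper-Pearson intervals for counting error only, with a floor of 3 fragments over a group that had 0. Windows of 75 bases shared between transcripts were counted on mm10. Python 3.11.15 was used with pandas 2.3.3, scipy 1.17.1, Biopython 1.88 and matplotlib 3.10.9. The limma comparison was tested on simulated data with equal noise in all 6 libraries, so that test does not cover libraries that stand apart.

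Every expressed member is named, below that those with at least 1 FPKM in any library, and of other lists up to 4 genes of smallest p plus redox, heme, receptor and marker genes. Members and lists were chosen with earlier results of these data known. Alternatives were pseudocounts, filters, scalings, empirical Bayes settings, library weights, a replicate block, limma-voom and leaving out each library.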

Additional observations from a re-analysis of the deposited data

How the results depend on the processing

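The count of all genes past the adjusted threshold, 10 by limma, was 0 with no filter on low values, 4 with a filter at a mean of 5 FPKM, 5 with robust empirical Bayes, 1301 with library weights, 1 with limma-voom on recovered fragments, 0 with limma-voom on all genes with at least 10 fragments, and 0 to 133 when single libraries were left out (133 without non-pregnant library 2). The count of P450 members past it, 0, was 4 with library weights and 0 to 0 when single libraries were left out. The median log2 change of the members, -0.16, was 0.0214 with a filter at a mean of 0.1 FPKM (55 members), 0.00516 with no filter (82), 0.12 with limma-voom on at least 10 fragments (74) and -0.21 to -0.0611 when single libraries were left out (-0.0611 without non-pregnant library 3). The number of expressed members, 22, was 55 at a mean of 0.1 FPKM and 14 at a mean of 5 FPKM. The 6 low members higher at an unadjusted p under 0.05 were 3 to 11 when single libraries were left out, beside 8.83% to 13.9% of all low genes, as an alternative added after seeing the data.

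Of 410 fits of single expressed members over 19 alternatives, 397 kept their direction and side of the threshold, 4 passed it (all with library weights) and 9 turned in direction, in 5 genes with small changes. With library weights the change was 0.49 for Cyp2e1 and -0.00026 for Cyp2j5. When single libraries were left out, Cyp2e1 ranged from -0.486 to 0.19, with 0.03 without non-pregnant library 2 and its highest value without pregnant library 3. Cyp2j5 ranged from -0.13 to 0.207, Cyp2j9 from -0.324 to 0.0020 and Cyp7b1 from -0.0619 to 0.222, and all of these turned without non-pregnant library 3. Cyp2s1 ranged from -0.346 to 0.0365, with 0.0053 without non-pregnant library 1 and its highest value without pregnant library 2. The cause was not tested.

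Deviations from the group means had correlations of 0.068, 0.019 and -0.138 between libraries of the same number. Pairs of different number had -0.152 to 0.103. Deviations from a mean of 3 libraries are not independent, so these values cannot tell whether the numbers mark a pairing. For non-pregnant library 3 the title and the description also give different numbers. With a replicate block 13 genes passed over all, 0 of them P450 genes, and the median change of the members was -0.16. For members with few fragments a difference may not be detectable at this depth.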

Other observations

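P450 genes whose names do not match the rule were measured beside the members. Cyp51, which demethylates lanosterol in cholesterol synthesis, measured 17.3, 31.4 and 6.80 FPKM outside pregnancy and 36.2, 33.3 and 38.5 FPKM at dpc8 (limma log2 change 1.15, SE 0.436, adjusted p = 0.346). Its groups did not overlap, and non-pregnant library 3 was the lowest. Tbxas1, the thromboxane synthase known from platelets and macrophages, stood at 3.55, 4.27 and 1.54 FPKM against 5.18, 5.61 and 4.80 FPKM, also without overlap (limma log2 change 0.65, SE 0.246, adjusted p = 0.344). Ptgis, the prostacyclin synthase, lay between 0.0408 and 0.180 FPKM.

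Conjugating enzymes, which act on what P450 enzymes make, showed no member past the threshold among 14 tested of 20, with 5 higher, 9 lower and a median log2 change of -0.06. Gstm1, a glutathione transferase, was abundant at 522 ± 57.6 and 405 ± 60.0 FPKM (SD, n = 3 each; limma adjusted p = 0.354). Ugt1a1, which conjugates bilirubin, measured 2.81, 2.23 and 2.45 FPKM outside pregnancy and 1.23, 1.37 and 2.04 FPKM at dpc8, without overlap (limma adjusted p = 0.298). Fmo5, a flavin monooxygenase, stood at 5.66 ± 0.431 and 4.51 ± 0.617 FPKM and Gsta4, a transferase for lipid aldehydes, at 19.7 ± 2.53 and 16.1 ± 3.57 FPKM (SD, n = 3 each).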
